A study of Mus musculus with 12 samples.

Results

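Chemokines, interleukins and the receptors that read them were followed through 4 states of mouse primary hepatic stellate cells. These cells store vitamin A around the vessels of the liver and become matrix-producing myofibroblasts when activated. The genes were taken by symbol alone: every listed gene whose name begins with Ccl, Cxcl, Ccr, Cxcr or Il and a digit, or with Cx3c or Ackr, with no use of its level. This gave 62 of the 12081 genes in the deposited table, which lists a gene only if it reached 1 CPM (the depth-scaled read count as the authors normalized it) in at least 3 libraries. They were 9 CC chemokines, 10 CXC chemokines, 1 CX3C chemokine, 4 chemokine receptors, 4 atypical chemokine receptors, 10 interleukins, 2 secreted inhibitors and 22 interleukin receptor chains. Of these, 43 reached a mean of 20 CPM in at least 1 group and 60 reached 5 CPM. All cells came from the livers of Hk2 fl/fl mice, in which Cre recombinase can remove the gene of the glycolytic enzyme hexokinase 2, and were purified on a density gradient. QS cells were fresh from the liver and untreated. ACT cells (treatment label Ad-GFP) had taken up an eGFP adenovirus and spent 6 days in culture. KO cells (Ad-Cre) had instead taken up an adenovirus whose Cre carries eGFP, for the same 6 days. LAC cells (Ad-Cre + Lactate) were KO cells exposed to 10 mM lactate for 24 h. Each group had 3 libraries. The labels do not say whether these came from different animals or cultures, so the p-values cover only the spread between libraries, which may be technical. QS and ACT differ in culture and in virus at once, and these cannot be told apart.

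Chemokines are small secreted proteins that direct the movement of white blood cells through receptors coupled to G proteins. Atypical receptors bind chemokines without that coupling and remove or redistribute them. Interleukins act through paired receptor chains: those of the IL-6 type share the chain gp130 and signal through JAK kinases and STAT factors, whereas the IL-1 type signals through MyD88 to NF-kB. In liver injury, stellate cells are known both as a source of chemokines and as responders to them, and the macrophages of the liver use many of the same genes.

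Estimated depth in M (megareads) was 4.35 to 10.14 (QS), 11.41 to 14.00 (ACT), 5.85 to 11.64 (KO) and 8.67 to 11.05 (LAC), so that a level of 3 reads corresponds to between 0.212 and 0.720 CPM. Hk2, the gene targeted by Cre, stood at 73.3, 66.7 and 73.5 CPM (QS), 181, 182 and 181 (ACT), 10.7, 13.7 and 11.9 (KO) and 18.7, 19.6 and 19.7 (LAC). Of the markers of the labelled cell type, Lrat, of vitamin A storage, was at 340.2 to 363 CPM in QS, and Acta2, the smooth muscle actin of activated cells, at 2624 to 2711 CPM in ACT. Lrat ranged over 15.5 to 19.9 CPM in KO and 11.8 to 15.8 CPM in LAC, and Acta2 over 620.1 to 675 and 1402 to 1469 CPM. All 12 stellate and myofibroblast markers are listed and summed to 4933 to 5039 CPM (QS), 13517 to 13551 (ACT), 4054 to 4305 (KO) and 6788 to 7140.3 (LAC). They went both ways, with 6 higher and 6 lower in ACT than in QS, and again 6 higher and 6 lower in KO than in ACT. Markers of other liver cells were present as well, and they differed between the groups. The 12 macrophage markers, all listed, summed to 3973 to 4166 CPM (QS), 13945 to 14267 (ACT), 512 to 534 (KO) and 3591 to 3645 (LAC). Within that list, Ptprc, the pan-leukocyte CD45, was at 208 to 226 CPM in ACT and 2.95 to 4.398 CPM in KO, and Adgre1, of F4/80, at 358 to 367 and 2.19 to 3.61 CPM. The 5 Kupffer cell markers summed to 2573 to 2636 CPM (QS), 470.2 to 472 (ACT), 15.1 to 18.7 (KO) and 13.6 to 14.4 (LAC), with Timd4 listed at 0 in all LAC libraries, and the defining marker Clec4f at 351 to 370.4 CPM in QS and 0.695 to 0.873 CPM in LAC. The 10 endothelial markers summed to 11026 to 11226 CPM (QS), 227 to 236 (ACT), 4742 to 5233 (KO) and 2490.0 to 2607 (LAC), with Stab2 at 39.6 to 40.3 CPM in ACT and 832 to 1025 CPM in KO. The 8 hepatocyte markers summed to 1840.2 to 1885 CPM (QS), 16.7 to 21.7 (ACT), 271 to 293 (KO) and 0.675 to 1.06 (LAC), with Alb at 154 to 161 CPM in KO and 0.338 to 0.844 CPM in LAC. The 2 of 6 neutrophil markers listed, S100a8 and Mmp8, summed to 4.24 to 6.27 CPM (QS), 18.9 to 19.8 (ACT), 0.672 to 1.14 (KO) and 1.83 to 3.28 (LAC), and both were lower in KO than in ACT. The 2 of 5 dendritic cell markers listed went opposite ways: Itgax, also a macrophage gene, ranged over 2.04 to 4.18 CPM (QS), 254 to 259.6 (ACT), 2.18 to 2.28 (KO) and 86.4 to 93.2 (LAC), and Zbtb46, also an endothelial gene, over 122 to 125 CPM (QS), 10.4 to 13.6 (ACT), 38.3 to 47.3 (KO) and 24.7 to 26.5 (LAC). The 5 of 6 mesothelial and biliary markers listed summed to 16.8 to 19.1 CPM (QS), 149.7 to 159 (ACT), 31.7 to 33.99 (KO) and 40.4 to 45.2 (LAC). Only 1 of 10 lymphocyte markers is listed, Cd3d, at 1.02 to 3.05 CPM. In these bulk libraries, fewer cells of a type and less RNA per cell cannot be told apart. The part of these other cells in the results that follow was not tested.

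Most of the 62 genes were highest in freshly isolated cells. QS held the highest mean for 34 of them (54.8%, against 36.5% of all 12081 genes), ACT for 15 (24.2%, against 24.2%), KO for 8 (12.9%, against 23.6%) and LAC for 5 (8.06%, against 15.6%). Some of the 34 depended on the listing rule, which held for all 12081 genes. Ccl5 and Il1b met it through QS libraries alone, and Ackr4, Cxcl3, Cxcl13 and Il13ra2 would not have met it without them. A gene was called when its limma p-value, adjusted over all genes, was under 0.05, and each log2 fold change was taken on log2(CPM + 1), a scale on which low genes appear to change less than they do. From QS to ACT, 19 of the 62 rose and 36 fell, beside a background of 38% of all genes called higher and 35.5% lower (73.5% in either direction). Their median log2 fold change was -1.01 where that of all genes was 0.03. From ACT to KO, 20 rose and 28 fell, with 36% of all genes called higher and 26.3% lower (62.4% in all). The median was -0.35 beside 0.07. Between KO and LAC, 21 rose and 16 fell, beside 20% of all genes called higher and 21% lower (41% in all). The median was -0.08 beside -0.02. With quantile scaling the last pair of counts was 18 and 19, so the side with more calls depends on the scaling there. LAC against ACT, which differ both in Cre and in lactate, had 13 higher and 27 lower, beside calls of 27.8% of all genes higher and 21.7% lower (49.5% in all). The median there was -0.17 beside 0.03.

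The libraries of the 2 groups did not overlap for 54, 53, 41 and 45 of the 62 genes in these 4 comparisons, where 76.3%, 69.2%, 52.2% and 62.8% of all genes did not overlap. Since ACT enters 3 of the comparisons and KO enters 2, a fall in one and a rise in the next share libraries. Ccr1, Cx3cr1 and Cxcr4 were highest in ACT, 8 of 10 CXC chemokines and 6 of 9 CC chemokines in QS, and 3 of 10 interleukins in LAC. The heat map of 61 of the 62 genes shows these levels.

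**Figure D1:**
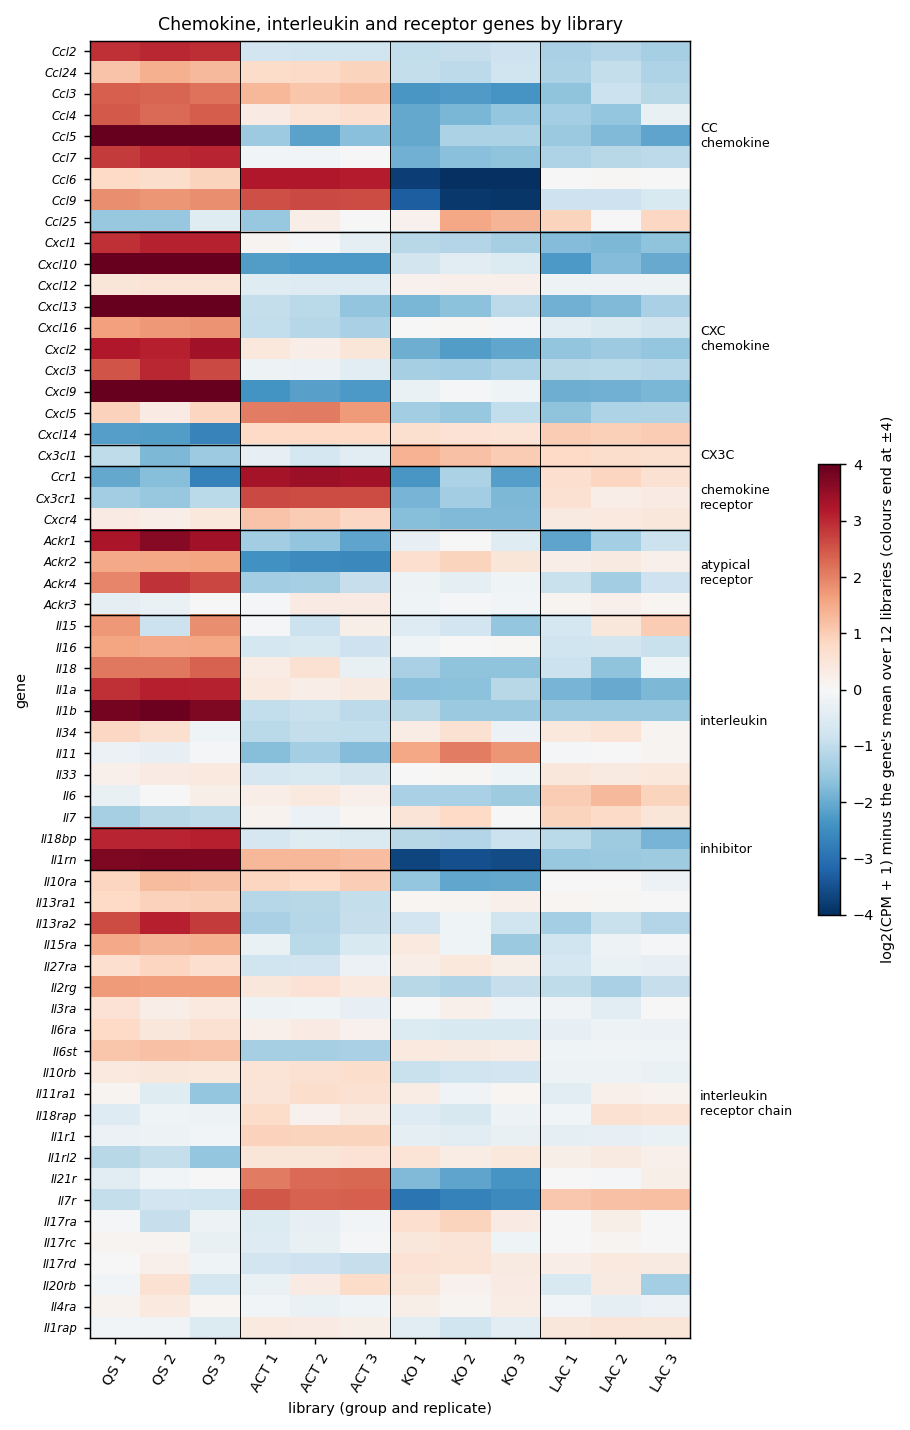
Level of 61 of the 62 genes (rows, grouped by role) in each of the 12 libraries (columns, grouped by QS, ACT, KO and LAC), as log2(CPM + 1) minus the gene's own mean over the libraries, with colours ending at ±4. The chemokine receptors drawn are highest in the ACT columns, while 8 of 10 CXC chemokines are highest in the QS columns.

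The CXC chemokines Cxcl1, Cxcl2 and Cxcl3, which attract neutrophils through the receptor CXCR2, lie in one stretch of chromosome 5 (90786103 to 90905938). They shared a short promoter word. The stretch of 120 bases before each start site is shown because all of them hold the same NF-kB decamer, printed in capitals, at 71 bases (Cxcl1), 97 bases (Cxcl2) and 73 bases (Cxcl3) before the start. They are RefSeq sequences of GRCm38.p6 (mm10), each on the plus strand and 5′ to 3′: chr5:90891125-90891244 for Cxcl1, chr5:90903779-90903898 for Cxcl2 and chr5:90785981-90786100 for Cxcl3.
Cxcl1: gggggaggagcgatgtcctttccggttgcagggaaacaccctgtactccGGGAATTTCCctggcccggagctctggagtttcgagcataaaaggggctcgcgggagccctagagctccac
Cxcl2: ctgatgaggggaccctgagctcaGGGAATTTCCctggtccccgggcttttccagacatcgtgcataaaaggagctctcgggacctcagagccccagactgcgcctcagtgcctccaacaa
Cxcl3: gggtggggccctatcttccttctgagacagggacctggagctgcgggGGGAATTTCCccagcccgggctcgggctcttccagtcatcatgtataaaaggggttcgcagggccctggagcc
The decamer, searched on both strands, was in 29 of 32851 RefSeq windows that run from 250 bases before to 50 after a start (0.0883%), and in 4 of the 47 members with a window, the other being Il16. A variant of the decamer with C in its middle was in no member window and in 0.155% of all windows. Such a match describes letters and is not shown to be a site of any factor here.

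In the cells, Cxcl1 (chromosome 5, 90891241 to 90893115, plus strand) stood at 61.8, 68.6 and 68.2 CPM (QS), 7.86, 6.91 and 5.46 (ACT), 2.84, 2.69 and 2.26 (KO) and 1.46, 1.38 and 1.74 (LAC). The level was highest in QS, and the 4 groups did not overlap at any step. It fell from QS to ACT (log2 fold change -3.13, SE 0.15 and adjusted p = 1.18e-10), from ACT to KO (log2 fold change -1.10, SE 0.15 and adjusted p = 1.71e-05) and from KO to LAC (log2 fold change -0.51, SE 0.15 and adjusted p = 0.0137). Cxcl2 (chromosome 5, 90903871 to 90905938, plus strand) had 49.4, 46.5 and 54.5 CPM (QS), 6.39, 5.604 and 6.65 (ACT), 0.4204, 0.165 and 0.285 (KO) and 0.834, 0.988 and 0.851 (LAC). Its falls from QS to ACT (log2 fold change -2.83, SE 0.15 and adjusted p = 5.11e-10) and from ACT to KO (log2 fold change -2.49, SE 0.15 and adjusted p = 3.77e-09) were followed by a small rise in LAC (log2 fold change 0.56, SE 0.15 and adjusted p = 0.00971) between levels that are all under 1 CPM. With a pseudocount of 5 CPM neither the change of Cxcl1 nor that of Cxcl2 from KO to LAC was called. Cxcl3 gave 14.4, 20.9 and 15.8 CPM (QS), 1.34, 1.3001 and 0.987 (ACT), 0.08397, 0.0357 and 0.142 (KO) and 0.266, 0.296 and 0.225 (LAC), with falls of similar kind into ACT (-3.02) and KO (-1.02), and in KO all its values lay under the level of 3 reads. Outside QS only ACT replicates 1 and 2 reached 1 CPM. Cxcl3 was thus listed because of its QS libraries, which favoured a fall into ACT. Cxcl5, of the same neutrophil-attracting class but without a promoter window to search for the decamer, ran another way at first. It ranged over 3.85 to 6.25 CPM (QS), 11.6 to 15.2 (ACT), 0.3296 to 0.954 (KO) and 0.253 to 0.675 (LAC), and so was the one neutrophil-attracting gene that rose into ACT (1.24), before it fell in KO (log2 fold change -3.24, SE 0.23 and adjusted p = 1.65e-08) and was also lower in LAC than in ACT (log2 fold change -3.30, SE 0.23 and adjusted p = 2.45e-08).

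Cxcl9 and Cxcl10, the chemokines that interferon induces and that call T cells through CXCR3, were nearly lost on activation and partly present in KO. Cxcl10 is printed over the 250 bases before its start (GRCm38.p6, chr5:92348890-92349139, minus strand, 5′ to 3′ of the gene), because this window holds both the element of interferon-stimulated genes, 213 bases before the start, and an AP-1 word (TGANTCA), 74 bases before it, each in capitals.
Cxcl10: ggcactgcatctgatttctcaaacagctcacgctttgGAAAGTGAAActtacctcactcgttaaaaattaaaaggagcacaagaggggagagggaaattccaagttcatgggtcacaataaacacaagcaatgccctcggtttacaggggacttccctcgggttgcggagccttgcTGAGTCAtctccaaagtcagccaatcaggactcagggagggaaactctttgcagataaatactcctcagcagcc
The 47 members with a window have 57 windows. The interferon-stimulated response element was in 3 of these windows (Cxcl10, Cxcl14 and Il1rap). It was in 3.44% of all windows and 3.25% of those of genes in the deposited table. The AP-1 word was in 10 of the 57 (Ccl9, Cxcl9, Cxcl10, Il1a, Il1rn, Il6, Il11, Il13ra2, Il15ra and Il16), in 7.81% of all windows and in 5.35% of those of genes in the deposited table. The stricter STAT word (TTCCNGGAA) was in no member window and in 1.15% of all windows, and the looser one (TTCNNNGAA) in 2 of the 57 (Cxcl14 and Il7r) and in 8.3% of all windows.

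Levels of Cxcl10 were 384, 379.8 and 379.8 CPM (QS), 1.84, 1.69 and 1.68 (ACT), 6.97, 8.899 and 8.12 (KO) and 1.69, 2.98 and 2.25 (LAC). It thus fell steeply from QS to ACT (log2 fold change -7.13, SE 0.14 and adjusted p = 7.36e-15) and rose in KO (log2 fold change 1.71, SE 0.14 and adjusted p = 9.51e-08). With lactate it fell (log2 fold change -1.46, SE 0.14 and adjusted p = 1.59e-06), to a level whose libraries overlap those of ACT. Cxcl9 followed the same order with 109, 101 and 113 CPM (QS), 0, 0.178 and 0.0741 (ACT), 3.38, 4.12 and 3.704 (KO) and 0.365, 0.395 and 0.487 (LAC). Its changes were -6.65, 2.13 and -1.74 on the log2 scale, with adjusted p = 3.03e-14, 1.71e-08 and 4.77e-07. The remaining difference of LAC over ACT in Cxcl9 was called (log2 fold change 0.39, SE 0.15 and adjusted p = 0.0441), but it was not called without ACT replicate 1 or 3 or LAC replicate 1, 2 or 3 (log2 fold change 0.33 to 0.41, adjusted p = 0.0614 to 0.124). KO therefore held 2.097% of the QS level of Cxcl10 and 3.46% of that of Cxcl9. Stat2, which carries the interferon signal, had a mean ± SD of 288 ± 8.85 CPM (QS), 26.2 ± 0.8002 (ACT), 23.3 ± 0.524 (KO) and 20.3 ± 0.835 (LAC) (n = 3 each), and its fall from ACT to KO (-0.16) was not called without ACT replicate 3 or KO replicate 2 (log2 fold change -0.14, adjusted p = 0.0643 to 0.0869). That call was also lost with equal totals, with quantile scaling and with only the 2 groups compared in the fit (adjusted p = 0.0557 to 0.0897). The RNA level of Stat2 does not measure that signal, and whether interferon signalling differed between the groups was not tested. The summed endothelial and hepatocyte markers given above were higher in KO than in ACT and lower in LAC than in KO, as Cxcl9 and Cxcl10 were. Their part in these results was not tested.

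Since CPM is not per length, levels are compared only within a gene. Cxcl12 (chromosome 6, 117168535 to 117181367, plus strand), which binds CXCR4 and retains cells in tissue, stood at 965, 1007 and 995 CPM (QS), 484, 475 and 476 (ACT), 769, 790.5 and 785 (KO) and 588, 589.7 and 593 (LAC). The 4 groups did not overlap, in the order QS, KO, LAC and ACT from high to low: Cxcl12 fell into ACT (log2 fold change -1.05, SE 0.027 and adjusted p = 1.76e-13) and rose in KO (log2 fold change 0.71, SE 0.027 and adjusted p = 2.43e-11). From KO to LAC it fell (log2 fold change -0.40, SE 0.027 and adjusted p = 4.24e-08) to a level still above ACT (0.30). Cxcl16, which exists as a membrane-bound and a shed form and binds CXCR6, had the same order of groups with 157, 167 and 176 CPM (QS), 24.7, 21.9 and 19.8 (ACT), 48.9, 51.03 and 48.7 (KO) and 37.2, 33.3 and 29.7 (LAC). Its changes were -2.86 into ACT, 1.13 into KO and -0.56 with lactate. The sum of the endothelial markers had the same order of groups, QS over KO over LAC over ACT, and its part in these results was not tested. Cxcl13, which attracts B cells, was highest in QS: its libraries held 76.7, 87.4 and 84.4 CPM (QS), 1.13, 0.953 and 0.364 (ACT), 0.168, 0.3296 and 0.997 (KO) and 0.0888, 0.211 and 0.675 (LAC), and none outside QS reached 2 CPM (log2 fold change -5.55, ACT against QS). Outside QS only ACT replicate 1 reached 1 CPM. Cxcl13 was thus listed because of its QS libraries, which favoured such a fall.

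Cxcl14 (chromosome 13, 56288643 to 56296551, minus strand), a chemokine expressed by many resting epithelia and fibroblasts, was, with Cxcl5, one of 2 of the 10 CXC chemokines that rose into ACT, where 38% of all genes were called higher. Its values were 13.6, 13.2 and 9.61 CPM (QS), 115, 115 and 116 (ACT), 103, 99.5 and 97.7 (KO) and 137, 131 and 135 (LAC). From QS to ACT it rose (log2 fold change 3.16, SE 0.093 and adjusted p = 6.31e-13), the largest rise of any chemokine ligand in that comparison, and rose again with lactate (log2 fold change 0.42, SE 0.093 and adjusted p = 0.00252). KO and ACT did not overlap, but the difference was not called (log2 fold change -0.20, 95% interval -0.40 to -0.00, adjusted p = 0.0729), nor was that of LAC over ACT (log2 fold change 0.22, 95% interval 0.02 to 0.42, adjusted p = 0.0684). The levels of 12 members, with each library drawn, show how unlike these courses are.

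**Figure D2:**
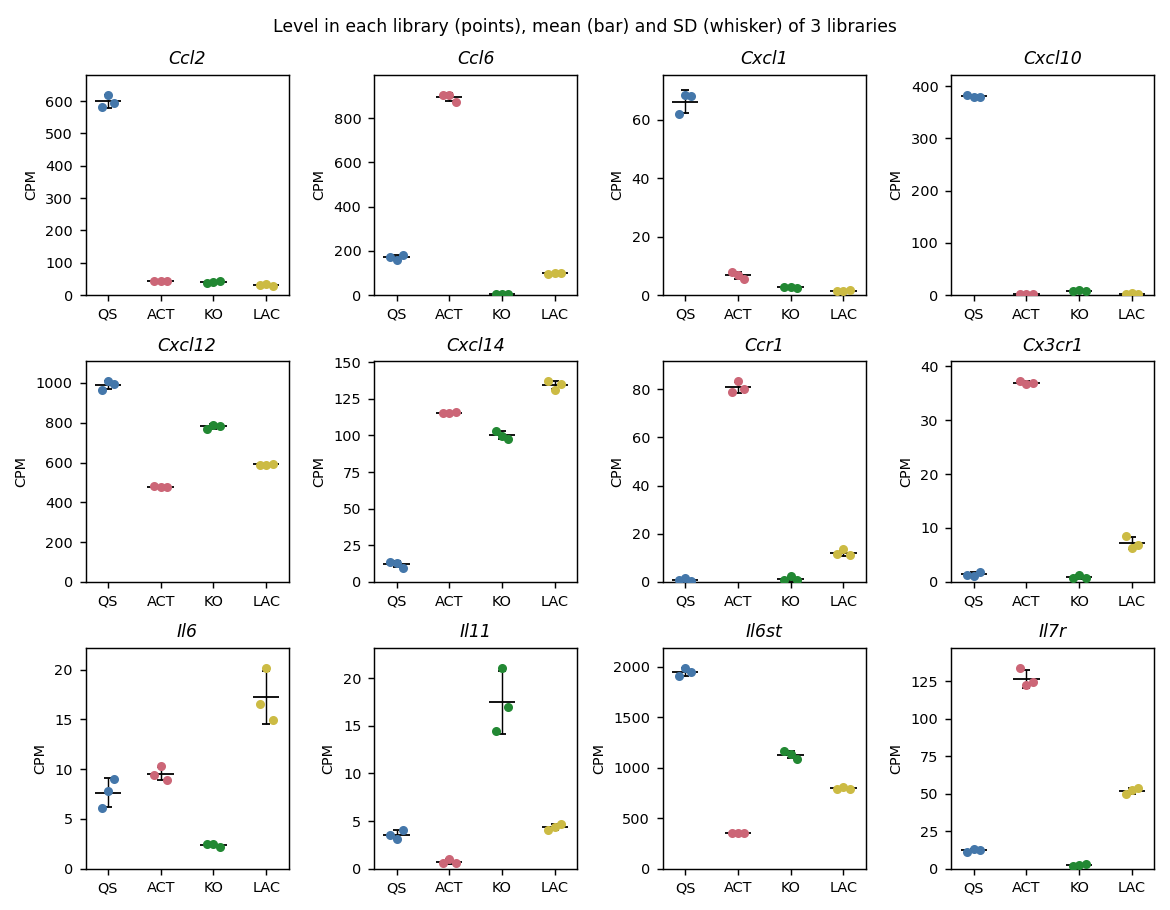
CPM of 12 members in each library (points) with the mean and SD of the 3 libraries of a group (bars), for QS, ACT, KO and LAC, each panel on its own linear axis. Cxcl12 and Il6st follow the order QS, KO, LAC, ACT, whereas Ccl6, Ccr1, Cx3cr1 and Il7r peak in ACT and are lowest in KO or QS.

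Among the CC chemokines, 6 of 9 fell from QS to ACT and 2 rose, with a median of -1.07, and 6 fell and 1 rose from ACT to KO, with a median of -1.73. In either direction 88.9% and 77.8% were called, beside 73.5% and 62.4% of all genes. The genes that rose on activation were Ccl6 and Ccl9, neighbours on chromosome 11 whose products act on the receptor CCR1. Ccl6 (chromosome 11, 83587882 to 83593087, minus strand) stood at 171, 159 and 182 CPM (QS), 906, 905 and 874 (ACT), 6.203, 5.104 and 4.13 (KO) and 96.8, 99.8 and 98.9 (LAC). No group overlapped another. It was higher in ACT than in QS (log2 fold change 2.39, SE 0.092 and adjusted p = 1.22e-11), fell in KO to 0.575% of the ACT mean (log2 fold change -7.20, SE 0.092 and adjusted p = 1.73e-16) and was at 11.002% of it with lactate (log2 fold change 4.03, SE 0.092 and adjusted p = 4.93e-13). Ccl9 had 214, 201 and 214 CPM (QS), 352, 371 and 364 (ACT), 5.11, 3.06 and 3.01 (KO) and 32.2, 32.4 and 38.02 (LAC). It rose in ACT (log2 fold change 0.78, SE 0.13 and adjusted p = 7.01e-05) and fell in KO (log2 fold change -6.29, SE 0.13 and adjusted p = 2.05e-14). After lactate it rose (log2 fold change 2.92, SE 0.13 and adjusted p = 3.95e-10) while staying below ACT (-3.37).

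Ccl2 and its neighbour Ccl7, attractants of monocytes through the receptor CCR2, were both highest in QS. Ccl2 (chromosome 11, 82035571 to 82037453, plus strand) stood at 582, 620.2 and 595 CPM (QS), 43.6, 42.5 and 42.98 (ACT), 37.5, 39.2 and 42.4 (KO) and 29.9, 32.9 and 29.4 (LAC). It fell steeply from QS to ACT (log2 fold change -3.77, SE 0.058 and adjusted p = 5.43e-16), did not pass the test from ACT to KO (log2 fold change -0.12, 95% interval -0.24 to 0.01, adjusted p = 0.0977), and fell with lactate (log2 fold change -0.36, SE 0.058 and adjusted p = 0.000202). Ccl7 gave 179, 204 and 214 CPM (QS), 23.3, 23.1 and 24.6 (ACT), 5.88, 7.09 and 7.55 (KO) and 10.03, 10.98 and 11.6 (LAC). From QS to ACT it fell (-3.02) and fell further in KO (log2 fold change -1.66, SE 0.10 and adjusted p = 3.4e-09), where its highest library lay under the lowest of ACT, and rose with lactate (0.60). Whether the KO effect on the 2 genes differs was not tested.

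Ccl3, Ccl4 and Ccl5, attractants of monocytes and T cells, were all highest in QS. Ccl5, typical of T cells and NK cells, was at 161, 169 and 157 CPM (QS), 0.778, 0.0867 and 0.5102 (ACT), 0.168, 0.989 and 0.997 (KO) and 0.7104, 0.403 and 0.113 (LAC), so under 1 CPM in every library outside QS (log2 fold change -6.83, ACT against QS). Ccl5 was thus listed through QS alone and had to be high there, so this fall is no test. Of the lymphocyte markers only Cd3d is listed, at 2.40 to 2.91 CPM in QS, and its part was not tested. Ccl3 stood at 40.7, 38.9 and 34.7 CPM (QS), 19.2, 16.4 and 17.3 (ACT), 0.588, 0.659 and 0.5697 (KO) and 1.598, 3.38 and 2.701 (LAC), falling into ACT (-1.07) and KO (log2 fold change -3.53, SE 0.18 and adjusted p = 3.99e-10) and rising with lactate (log2 fold change 1.12, SE 0.18 and adjusted p = 0.000181). For Ccl4 the libraries gave 21.7, 19.2 and 21.3 CPM (QS), 4.24, 5.03 and 5.61 (ACT), 0, 0.165 and 0.427 (KO) and 0.622, 0.422 and 2.36 (LAC), with falls into ACT (-1.87) and KO (-2.33). Its rise from KO to LAC (log2 fold change 0.74, SE 0.28 and adjusted p = 0.0477) was not called without KO replicate 1 or 2 or LAC replicate 3 (log2 fold change 0.36 to 0.73, adjusted p = 0.0968 to 0.215). The other CC chemokines were low throughout: Ccl24, an eotaxin, ranged over 4.997 to 6.35 CPM (QS), 3.55 to 4.11 (ACT), 0.3296 to 0.5697 (KO) and 0.135 to 0.422 (LAC), and Ccl25, known from thymus and gut, over 0 to 1.04 CPM (QS), 1.2e-07 to 2.49 (ACT), 2.23 to 7.36 (KO) and 1.94 to 4.32 (LAC). Ccl24 fell from ACT to KO (-1.74). The call of Ccl25 in KO (log2 fold change 1.45, SE 0.49 and adjusted p = 0.0194) rested on overlapping libraries and was not called without ACT replicate 1 or KO replicate 2 or 3 (log2 fold change 0.90 to 1.28, adjusted p = 0.066 to 0.105).

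Cx3cl1, or fractalkine, a chemokine held on the surface of endothelial and other cells, was the one ligand of its class and had a course of its own. Its libraries were at 5.16, 2.64 and 3.55 CPM (QS), 8.91, 6.67 and 8.48 (ACT), 31.9, 27.5 and 24.5 (KO) and 21.1, 19.4 and 18.7 (LAC), an order without overlap of KO, LAC, ACT and QS. Its level rose into ACT (0.94) and into KO (log2 fold change 1.68, SE 0.18 and adjusted p = 1.59e-06) and was higher in LAC than in ACT (log2 fold change 1.21, SE 0.18 and adjusted p = 6.37e-05). The fall from KO to LAC (-0.48) was not called without KO replicate 1 or 2 or LAC replicate 1, 2 or 3 (log2 fold change -0.38 to -0.52, adjusted p = 0.0689 to 0.164). The sum of endothelial markers had the same order of KO over LAC over ACT but was highest in QS, where Cx3cl1 was lowest, and its part was not tested.

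The chemokine receptors Ccr1, Cx3cr1 and Cxcr4 rose on activation, fell in KO and rose with lactate, each to a level below that of ACT. All 3 were called in each of the 4 comparisons. The shares of all genes called were 73.5% (ACT against QS), 62.4% (KO against ACT), 41% (LAC against KO) and 49.5% (LAC against ACT). Ccr1 (chromosome 9, 123962124 to 123968692, minus strand), a receptor of monocytes and neutrophils, stood at 0.9296, 1.44 and 0.209 CPM (QS), 78.9, 83.2 and 80.2 (ACT), 0.588, 2.31 and 0.712 (KO) and 11.5, 13.5 and 11.03 (LAC). It rose into ACT (log2 fold change 5.52, SE 0.28 and adjusted p = 2.46e-10), the largest rise of the 62 genes there, and fell in KO (log2 fold change -5.30, SE 0.28 and adjusted p = 7e-10). With lactate it rose (log2 fold change 2.64, SE 0.28 and adjusted p = 3.91e-06).

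Cx3cr1, the fractalkine receptor of monocytes and macrophages, had 1.34, 1.16 and 1.897 CPM (QS), 37.2, 36.7 and 36.9 (ACT), 0.693, 1.36 and 0.765 (KO) and 8.48, 6.37 and 6.82 (LAC). It rose in ACT (log2 fold change 3.96, SE 0.18 and adjusted p = 7.19e-11) and fell in KO (-4.31). From KO to LAC it rose (2.09), so that receptor and ligand were highest in different groups, Cx3cr1 in ACT and Cx3cl1 in KO. Cxcr4, the receptor of Cxcl12, peaked in ACT at 15.96 to 20.2 CPM and was lowest in KO, at 1.81 to 1.93 CPM. Its LAC libraries (11.3 to 12.04 CPM) overlapped those of QS (10.6 to 11.695 CPM). The changes of Cxcr4 were 0.66, -2.74 and 2.14 at the 3 steps. Its ligand Cxcl12 was lowest in ACT, where Cxcr4 was highest.

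Most macrophage markers moved in the directions of these receptors from ACT to KO and from KO to LAC. From QS to ACT 8 of the 12 rose, 2 fell and 2 were not called. Their QS sum was 28.7% of that in ACT, where Ccr1 stood at 1.06%, Cx3cr1 at 3.97% and Cxcr4 at 61.1%. Of the 12, 11 fell from ACT to KO and rose from KO to LAC, while Mrc1, the mannose receptor that endothelial cells of the liver also carry, did the reverse. Their sum in KO was 3.69% of that in ACT, and in LAC 25.6%. Ccr1 stood at 1.49% and 14.9%, Cx3cr1 at 2.54% and 19.6%, and Cxcr4 at 10.2% and 63.7%. In the same terms Ccl6 was at 0.575% and 11.002%, Ccl9 at 1.03% and 9.44%, and Il7r at 2.09% and 41.1%. Other members that fell in KO and rose with lactate were Il21r (1.99% and 19.9%), Il1rn (2.55% and 13.9%), Ccl3 (3.43% and 14.5%), Ccl4 (3.98% and 22.9%), Cxcl2 (4.66% and 14.3%) and Il10ra (11.8% and 48.97%). Farther from the macrophage percentages lay Ccl7 (28.9% and 45.9%), Il10rb (36.4% and 55.5%), Il6ra (54.9% and 70.1%), Il18rap (36.2% and 94.7%), Il1rap (54.3% and 112%) and Il6 (24.98% and 179.8%). The part of macrophage RNA in the results on these genes was not tested. By contrast the Kupffer cell markers, at 3.49% of ACT in KO, stood at 2.97% in LAC.

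**Figure D3:**
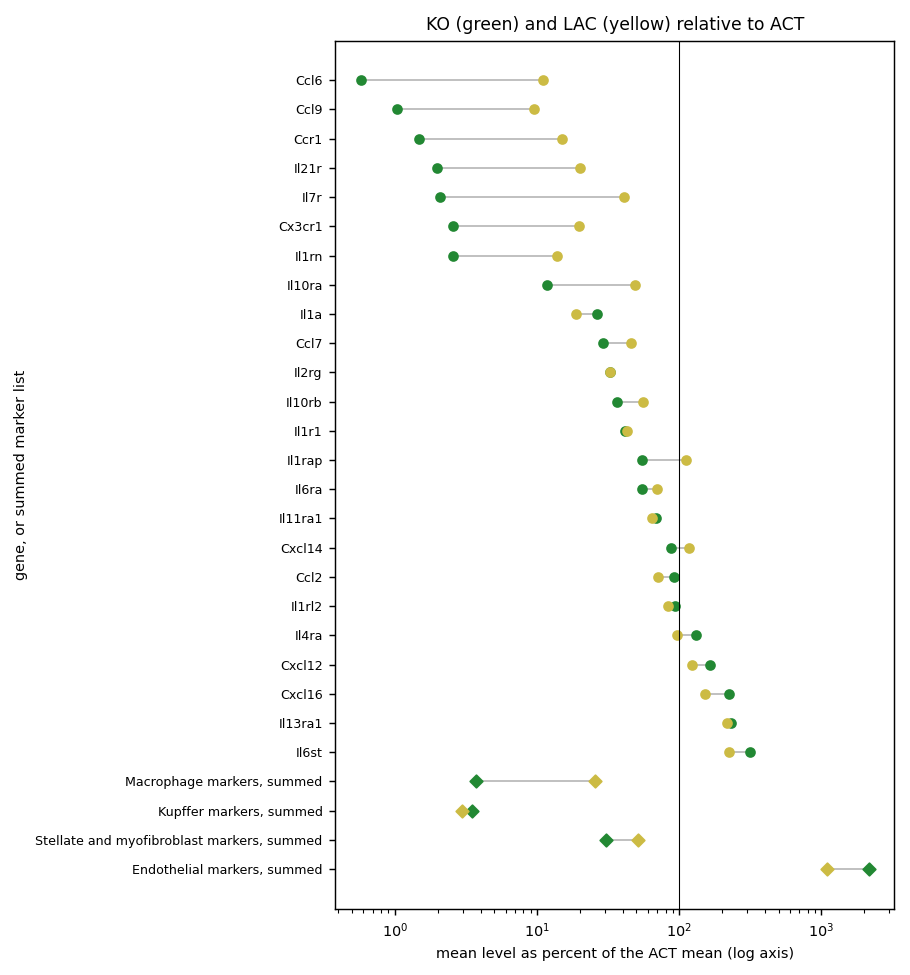
Mean level in KO and in LAC as a percentage of the ACT mean (log axis) for 24 members with an ACT mean of at least 20 CPM (circles), and for the sums of the macrophage, Kupffer cell, endothelial and stellate marker lists (diamonds). Ccl6, Ccl9, Ccr1, Cx3cr1, Il1rn, Il21r and Il7r lie in KO below the macrophage sum of 3.69%, and all but Il7r lie in LAC below its 25.6%.

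Of the atypical receptors, 3 of 4 stayed under 2 CPM in every ACT library and rose in KO, where 36% of all genes were called higher. Ackr2 (chromosome 9, 121898355 to 121911074, plus strand), a scavenger of inflammatory CC chemokines, stood at 32.95, 33.8 and 34.5 CPM (QS), 1.202, 1.04 and 0.999 (ACT), 17.9, 20.9 and 15.5 (KO) and 13.2, 14.04 and 12.5 (LAC). After its fall into ACT (log2 fold change -4.06, SE 0.12 and adjusted p = 8.37e-13) it rose in KO (log2 fold change 3.19, SE 0.12 and adjusted p = 2.25e-11), and LAC was still above ACT (log2 fold change 2.78, SE 0.12 and adjusted p = 2.32e-10), the largest rise of the 62 genes in that comparison. The fall from KO to LAC (-0.41) was not called without KO replicate 2 or LAC replicate 3 (log2 fold change -0.31 to -0.38, adjusted p = 0.0573 to 0.0737). Ackr1, the Duffy receptor of venular endothelium and red cells, had 40.04, 52.2 and 43.2 CPM (QS), 0.637, 0.433 and 0 (ACT), 2.44, 3.296 and 2.08 (KO) and 0, 0.669 and 1.35 (LAC). It was lower in ACT than in QS (log2 fold change -5.11, SE 0.29 and adjusted p = 9.44e-10) and rose in KO (1.43). After lactate it fell (-1.179), all at a few CPM outside QS. Ackr4, which scavenges CCL19, CCL21 and CCL25, ranged over 8.996 to 18.4 CPM (QS), 0 to 0.364 (ACT), 0.989 to 1.31 (KO) and 0 to 0.4502 (LAC). Its rise in KO was called (0.96), and its fall with lactate (-0.78) was not called without KO replicate 1 or 3 or LAC replicate 2 (log2 fold change -0.61 to -0.76, adjusted p = 0.0737 to 0.122). Ackr3, which takes up CXCL12, stayed low, at 4.24 to 5.64 CPM (QS), 5.45 to 7.54 (ACT), 5.04 to 5.44 (KO) and 6.08 to 6.76 (LAC). Its rise into ACT (log2 fold change 0.42, SE 0.16 and adjusted p = 0.0261), between overlapping libraries, was not called without QS replicate 1 or 2 or ACT replicate 2 or 3 (log2 fold change 0.35 to 0.39, adjusted p = 0.0602 to 0.1). The endothelial markers, of which all 10 fell into ACT, rose in KO and fell with lactate, moved in the same directions as Ackr1, Ackr2 and Ackr4, and their part was not tested.

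Among the interleukins, Il6 and Il11, which share the receptor chain gp130, moved in opposite directions from ACT to KO and again from KO to LAC. The macrophage, endothelial and hepatocyte marker sums given above differed between these groups as well, and their part was not tested. Il6 (chromosome 5, 30013114 to 30019981, plus strand), the inducer of the acute phase response in hepatocytes, stood at 6.08, 7.79 and 9.05 CPM (QS), 9.45, 10.3 and 8.95 (ACT), 2.47, 2.47 and 2.22 (KO) and 16.6, 20.1 and 14.9 (LAC). QS and ACT overlapped (log2 fold change 0.30, 95% interval -0.04 to 0.64, adjusted p = 0.0985), KO lay below both (log2 fold change -1.64, SE 0.16 and adjusted p = 5.54e-07), and LAC lay above all other libraries (log2 fold change 2.42, SE 0.16 and adjusted p = 2.79e-08), including those of ACT (log2 fold change 0.78, SE 0.16 and adjusted p = 0.000916). Il11 (chromosome 7, 4772373 to 4782859, minus strand), a cytokine of fibroblasts that is studied as a driver of fibrosis, gave 3.49, 3.17 and 4.09 CPM (QS), 0.617, 1.05 and 0.587 (ACT), 14.5, 21.02 and 16.9 (KO) and 4.11, 4.36 and 4.66 (LAC). It was lowest in ACT (log2 fold change -1.39, SE 0.18 and adjusted p = 7.2e-06), rose in KO (log2 fold change 3.39, SE 0.18 and adjusted p = 7.35e-10), the largest rise of the 62 genes from ACT to KO, and fell with lactate (log2 fold change -1.77, SE 0.18 and adjusted p = 2.7e-06) to a level above ACT (1.63). The 4 groups of Il11 did not overlap.

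Their receptor chains moved in ways of their own. Il6st (chromosome 13, 112464070 to 112510086, plus strand), which encodes gp130, stood at 1905, 1985 and 1944 CPM (QS), 356, 357 and 358 (ACT), 1162, 1141 and 1088 (KO) and 793, 807 and 792 (LAC). The order was QS, KO, LAC and ACT without overlap, as for Cxcl12 and the endothelial marker sum, whose part was not tested: a fall into ACT (log2 fold change -2.44, SE 0.030 and adjusted p = 6.71e-17), a rise in KO (log2 fold change 1.66, SE 0.030 and adjusted p = 6.61e-15), a fall with lactate (log2 fold change -0.50, SE 0.030 and adjusted p = 1.2e-08) and a level in LAC above ACT (log2 fold change 1.16, SE 0.030 and adjusted p = 1e-12). Il6ra, the chain that binds IL-6 itself, had 40.9, 31.5 and 35.1 CPM (QS), 26.4, 28.9 and 26.02 (ACT), 15.3, 14.8 and 14.5 (KO) and 18.04, 19.7 and 19.2 (LAC). Its level fell into ACT (-0.38) and KO (-0.82). With lactate it rose (0.33), so that from ACT to KO gp130 and Il6ra moved in opposite directions. Il11ra1, the chain for IL-11, gave 23.2, 15.1 and 6.78 CPM (QS), 31.5, 35.5 and 33.6 (ACT), 26.9, 19.4 and 22.7 (KO) and 15.5, 25.1 and 24.2 (LAC). Near-identical copies of Il11ra1 exist in the mouse genome and share reads with it, so its level is uncertain. Its rise into ACT was 1.25 with all libraries and 0.80 without QS replicate 3, the lowest library, and its difference from ACT to KO was not called (log2 fold change -0.54, 95% interval -1.20 to 0.13, adjusted p = 0.147).

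In the IL-1 family the ligands and inhibitors fell from QS to ACT. The Kupffer cell, endothelial and hepatocyte marker sums given above fell at this step too, while the macrophage sum rose. Their part was not tested. Of the 10 listed genes of the family, receptor chains included, 6 fell and 4 rose from QS to ACT, with a median of -1.48, and 7 fell and 1 rose from ACT to KO, with a median of -0.87. In either direction 100% and 80% were called, beside 73.5% and 62.4% of all genes. Il1a, an alarmin held inside cells, stood at 184, 208 and 206 CPM (QS), 30.8, 28.2 and 30.03 (ACT), 6.63, 6.76 and 10.3 (KO) and 5.77, 5.07 and 5.96 (LAC). It fell both into ACT (log2 fold change -2.70, SE 0.13 and adjusted p = 1.73e-10) and into KO (log2 fold change -1.81, SE 0.13 and adjusted p = 2.72e-08), and its further fall in LAC (-0.41) was not called without KO replicate 3 or LAC replicate 2 (log2 fold change -0.22 to -0.35, adjusted p = 0.0814 to 0.0854). Il1b, the secreted form made by activated macrophages, was at 38.5, 41.8 and 36.1 CPM (QS), 0.424, 0.52003 and 0.364 (ACT), 0.304, 0 and 0 (KO) and 0, 0 and 0 (LAC), so listed at 0 in 2 of 3 KO libraries and in all LAC libraries. The fall from QS to ACT was called (log2 fold change -4.79), but every library outside QS was under 1 CPM. Il1b was thus listed through QS alone and had to be high there, so this fall is no test. LAC was also called below ACT (adjusted p = 0.0328), but at a level of a few reads and not without any 1 of the 6 libraries of those groups (adjusted p = 0.0533 to 0.0932). Il18, another product of inflammasome cleavage, ranged over 12.1 to 14.8 CPM (QS), 1.503 to 3.697 (ACT), 0 to 0.252 (KO) and 0 to 1.73 (LAC). It fell into ACT (-1.98) and KO (-1.72). Being called lower in LAC than in ACT (-1.09) rested on overlapping libraries and was not called without ACT replicate 2 or LAC replicate 2 (log2 fold change -0.72 to -0.89, adjusted p = 0.0648 to 0.0659).

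Il33, an alarmin of the nucleus of endothelial and fibroblastic cells, went the other way in KO and LAC. It stood at 18.4, 20.2 and 20.9 CPM (QS), 9.48, 10.02 and 9.11 (ACT), 15.5, 16.3 and 13.996 (KO) and 21.8, 20.7 and 21.5 (LAC). After its fall into ACT (-0.98) it rose in KO (log2 fold change 0.62, SE 0.096 and adjusted p = 6.45e-05). From KO to LAC it rose (log2 fold change 0.46, SE 0.096 and adjusted p = 0.00169), to a level whose libraries overlap those of QS. The secreted inhibitors were both highest in QS. Il1rn (chromosome 2, 24336853 to 24351494, plus strand), the IL-1 receptor antagonist, gave 621, 633 and 645 CPM (QS), 118, 117 and 109.6 (ACT), 2.73, 3.102 and 2.98 (KO) and 15.6, 15.7 and 16.7 (LAC). The antagonist fell into ACT (log2 fold change -2.45, SE 0.060 and adjusted p = 7.62e-14) and into KO (log2 fold change -4.88, SE 0.060 and adjusted p = 1.05e-16). After lactate it rose (log2 fold change 2.11, SE 0.060 and adjusted p = 3.69e-12), while LAC remained below ACT (log2 fold change -2.77, SE 0.060 and adjusted p = 1.24e-13). Il18bp, which traps IL-18, had 106, 107 and 112 CPM (QS), 7.07, 8.23 and 7.75 (ACT), 5.04, 4.78 and 6.12 (KO) and 5.202, 3.7999 and 2.59 (LAC). Its fall into ACT was called (log2 fold change -3.66, SE 0.17 and adjusted p = 9.11e-11), and the smaller one from ACT to KO (-0.46) was not called without ACT replicate 2 or 3 or KO replicate 1 or 2 (log2 fold change -0.40 to -0.46, adjusted p = 0.063 to 0.0848).

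The receptors of the IL-1 family were, unlike their ligands, higher in ACT than in QS. Il1r1 (chromosome 1, 40225080 to 40317257, plus strand), which carries the signal of IL-1, stood at 129, 132 and 141 CPM (QS), 287, 282 and 281 (ACT), 117, 111 and 124 (KO) and 119.5, 120.4 and 125 (LAC). From QS to ACT it rose (log2 fold change 1.08, SE 0.047 and adjusted p = 4.99e-11) and fell in KO (log2 fold change -1.27, SE 0.047 and adjusted p = 1.52e-11), and LAC overlapped KO (log2 fold change 0.06, 95% interval -0.05 to 0.16, adjusted p = 0.375). Il1rap, its partner chain, had 35.4, 34.8 and 26.2 CPM (QS), 50.8, 47.98 and 45.6 (ACT), 28.5, 21.8 and 28.03 (KO) and 52.5, 55.3 and 54.3 (LAC). It was higher in ACT than in QS (0.58) and fell in KO (log2 fold change -0.87, SE 0.12 and adjusted p = 1.72e-05). With lactate it rose (log2 fold change 1.03, SE 0.12 and adjusted p = 7.94e-06) to libraries just above those of ACT, a difference that was not called (log2 fold change 0.17, 95% interval -0.09 to 0.42, adjusted p = 0.264). Il1rl2, the chain that binds IL-36, gave 8.48, 9.705 and 6.06 CPM (QS), 28.05, 28.1 and 29.7 (ACT), 29.1, 24.2 and 26.3 (KO) and 23.2, 25.2 and 22.9 (LAC). Its rise into ACT (log2 fold change 1.73, SE 0.13 and adjusted p = 3.02e-08) was its one called change, with KO and ACT overlapping (log2 fold change -0.11, 95% interval -0.39 to 0.18, adjusted p = 0.501). Il18rap, the accessory chain for IL-18, was low, at 0.836 to 1.34 CPM (QS), 1.97 to 3.4003 (ACT), 0.678 to 1.28 (KO) and 1.47 to 3.003 (LAC). It fell from ACT to KO (-0.88), while its rise into ACT (0.72) was not called without QS replicate 1 or ACT replicate 1 (log2 fold change 0.56 to 0.61, adjusted p = 0.0645 to 0.0887) and its rise with lactate (0.81) was not called without KO replicate 2 or LAC replicate 2 or 3 (log2 fold change 0.69 to 0.72, adjusted p = 0.0641 to 0.0779).

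The chains of the common gamma family did not share a course. Il7r (chromosome 15, 9505788 to 9530176, minus strand), the IL-7 receptor of lymphocytes and some myeloid cells, stood at 11.5, 13.1 and 12.7 CPM (QS), 134, 122 and 124 (ACT), 2.15, 2.67 and 3.12 (KO) and 49.9, 52.6 and 53.7 (LAC). Its level rose into ACT (log2 fold change 3.25, SE 0.10 and adjusted p = 1.07e-12) and fell in KO (log2 fold change -5.14, SE 0.10 and adjusted p = 1.39e-14). From KO to LAC it rose (log2 fold change 3.87, SE 0.10 and adjusted p = 1.81e-12), with no overlap at any step. Il21r had the same order of ACT over LAC over KO, with 3.84, 5.08 and 5.47 CPM (QS), 27.1, 30.7 and 31.5 (ACT), 0.961, 0.533 and 0.285 (KO) and 5.64, 5.38 and 6.77 (LAC), and changes of 2.42, -4.29 and 2.14. Il2rg, the gamma chain that both need, did not follow them: it gave 84.8, 82.8 and 82.1 CPM (QS), 35.1, 37.6 and 32.96 (ACT), 11.2, 10.2 and 12.8 (KO) and 11.9, 9.56 and 12.8 (LAC). This chain fell into ACT (-1.22) and KO (log2 fold change -1.55, SE 0.11 and adjusted p = 1.69e-08), and LAC overlapped KO (log2 fold change -0.00, 95% interval -0.24 to 0.23, adjusted p = 0.981). Il7, the ligand of Il7r and a product of stromal cells, ranged over 0.449 to 0.835 CPM (QS), 2.105 to 3.08 (ACT), 2.74 to 5.42 (KO) and 4.15 to 5.79 (LAC). It rose into ACT (1.14), and the difference of LAC over ACT (0.72) was not called without ACT replicate 2 or LAC replicate 1 (log2 fold change 0.60 to 0.63, adjusted p = 0.0668 to 0.0739). Il15 ranged over 0.623 to 9.63 CPM (QS), 0.603 to 2.47 (ACT), 0 to 1.03 (KO) and 0.802 to 4.904 (LAC), with no call in any comparison, and its receptor Il15ra over 6.16 to 7.07 CPM (QS), 0.339 to 1.31 (ACT), 0 to 2.66 (KO) and 0.5996 to 1.67 (LAC), with a fall into ACT (-2.09).

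The receptors of IL-10 were lower in KO than in ACT, as the macrophage marker sum was, whose part was not tested. Il10rb, a chain shared with other cytokines of the IL-10 type, stood at 126, 134 and 131 CPM (QS), 142, 147 and 157 (ACT), 51.9, 54.6 and 55.8 (KO) and 84.2, 82.97 and 80.3 (LAC). It fell in KO (log2 fold change -1.44, SE 0.049 and adjusted p = 5.55e-12). After lactate it rose (log2 fold change 0.60, SE 0.049 and adjusted p = 2.85e-07). Il10ra, the chain of leukocytes that binds IL-10, gave 26.4, 35.8 and 33.1 CPM (QS), 26.6, 25.6 and 29.4 (ACT), 4.28, 2.64 and 2.72 (KO) and 14.03, 13.99 and 11.96 (LAC). QS and ACT overlapped (log2 fold change -0.21, 95% interval -0.54 to 0.13, adjusted p = 0.242), KO was lower (log2 fold change -2.76, SE 0.16 and adjusted p = 1.57e-09) and LAC lay between (log2 fold change 1.78, SE 0.16 and adjusted p = 5.93e-07). Il20rb, of the same family, ranged over 1.06 to 4.19 CPM (QS), 1.798 to 4.58 (ACT), 2.83 to 3.695 (KO) and 0.315 to 3.36 (LAC) and was called in none of the 4 comparisons.

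The receptors of IL-17 rose in KO instead: all 3 listed chains were called higher than in ACT, beside 36% of all genes. Il17ra, the chain common to the family, had 13.1, 6.62 and 11.5 CPM (QS), 8.91, 10.6 and 12.5 (ACT), 22.1, 25.7 and 17.3 (KO) and 13.6, 15.98 and 13.7 (LAC), with a rise from ACT to KO (log2 fold change 0.96, SE 0.21 and adjusted p = 0.00132) and no called change into ACT (log2 fold change 0.07, 95% interval -0.39 to 0.52, adjusted p = 0.784). Il17rd ranged over 9.12 to 12.2 CPM (QS), 5.02 to 5.73 (ACT), 13.7 to 16.3 (KO) and 12.9 to 14.1 (LAC). Its level fell into ACT (-0.85), rose in KO (log2 fold change 1.33, SE 0.13 and adjusted p = 5.37e-07) and was above ACT in LAC as well (log2 fold change 1.178, SE 0.13 and adjusted p = 3.1e-06). Il17rc ranged over 6.57 to 9.12 CPM (QS), 5.498 to 7.87 (ACT), 7.19 to 12.2 (KO) and 8.45 to 9.01 (LAC), and its rise in KO (0.56) rested on overlapping libraries and was not called without ACT replicate 1 or 2 or KO replicate 1 or 2 (log2 fold change 0.43 to 0.55, adjusted p = 0.0537 to 0.0989). With lactate none of the 3 was called against KO, where 41% of all genes were called.

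The receptors of IL-4 and IL-13 fell on activation. Il13ra1, which pairs with the IL-4 receptor, stood at 161, 176 and 178 CPM (QS), 41.2, 42.6 and 47.7 (ACT), 97.7, 101 and 106 (KO) and 96.9, 94.6 and 92.7 (LAC). After a fall into ACT (log2 fold change -1.95, SE 0.060 and adjusted p = 1.09e-12) it rose in KO (log2 fold change 1.20, SE 0.060 and adjusted p = 4.49e-10), and the difference between KO and LAC was not called (log2 fold change -0.10, 95% interval -0.23 to 0.03, adjusted p = 0.216). Il13ra2, a decoy for IL-13, was above 2 CPM in QS alone, at 17.5, 24.96 and 19.6 CPM there, 0.212, 0.347 and 0.583 (ACT), 0.756, 1.65 and 0.712 (KO) and 0.178, 0.633 and 0.338 (LAC) (log2 fold change -3.97, ACT against QS). Outside QS only KO replicate 2 reached 1 CPM. Il13ra2 was thus listed because of its QS libraries, which favoured such a fall. Il4ra stayed within a narrow range, with 63.4, 75.6 and 61.04 CPM (QS), 53.5, 47.2 and 51.3 (ACT), 68.2, 62.001 and 70.2 (KO) and 52.6, 44.1 and 48.97 (LAC). Its falls into ACT (-0.39) and with lactate (-0.45) and its rise in KO (0.39) were all called.

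The other members were Il16, Il34, Il3ra and Il27ra. Il16, an attractant of CD4+ cells, stood at 61.9, 59.1 and 60.4 CPM (QS), 11.98, 12.7 and 10.8 (ACT), 17.6, 20.1 and 20.5 (KO) and 11.1, 11.65 and 10.4 (LAC). It fell into ACT (-2.27) and rose in KO (0.67). With lactate it fell (log2 fold change -0.76, SE 0.094 and adjusted p = 1.88e-05) to a level that overlaps ACT. Il34, which like Csf1 binds the receptor CSF1R, ranged over 4.69 to 10.5 CPM (QS), 2.096 to 2.34 (ACT), 4.53 to 8.78 (KO) and 5.94 to 8.45 (LAC). It was lowest in ACT, below KO (1.22) and LAC (log2 fold change 1.36, SE 0.26 and adjusted p = 0.000596). Il3ra had 29.5, 24.001 and 25.8 CPM (QS), 17.1, 17.3 and 15.6 (ACT), 19.5, 22.9 and 17.6 (KO) and 17.6, 14.6 and 19.3 (LAC), and fell into ACT (-0.63) with no other call. Il27ra, a partner of gp130, ranged over 15.3 to 17.4 CPM (QS), 4.88 to 7.65 (ACT), 10.96 to 12.7 (KO) and 5.35 to 7.44 (LAC). From QS to ACT it fell (-1.33) and rose in KO (0.91). From KO to LAC it fell (log2 fold change -0.73, SE 0.17 and adjusted p = 0.00314). The plot of fold changes gives 42 of the 43 genes of at least 20 CPM at once.

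**Figure D4:**
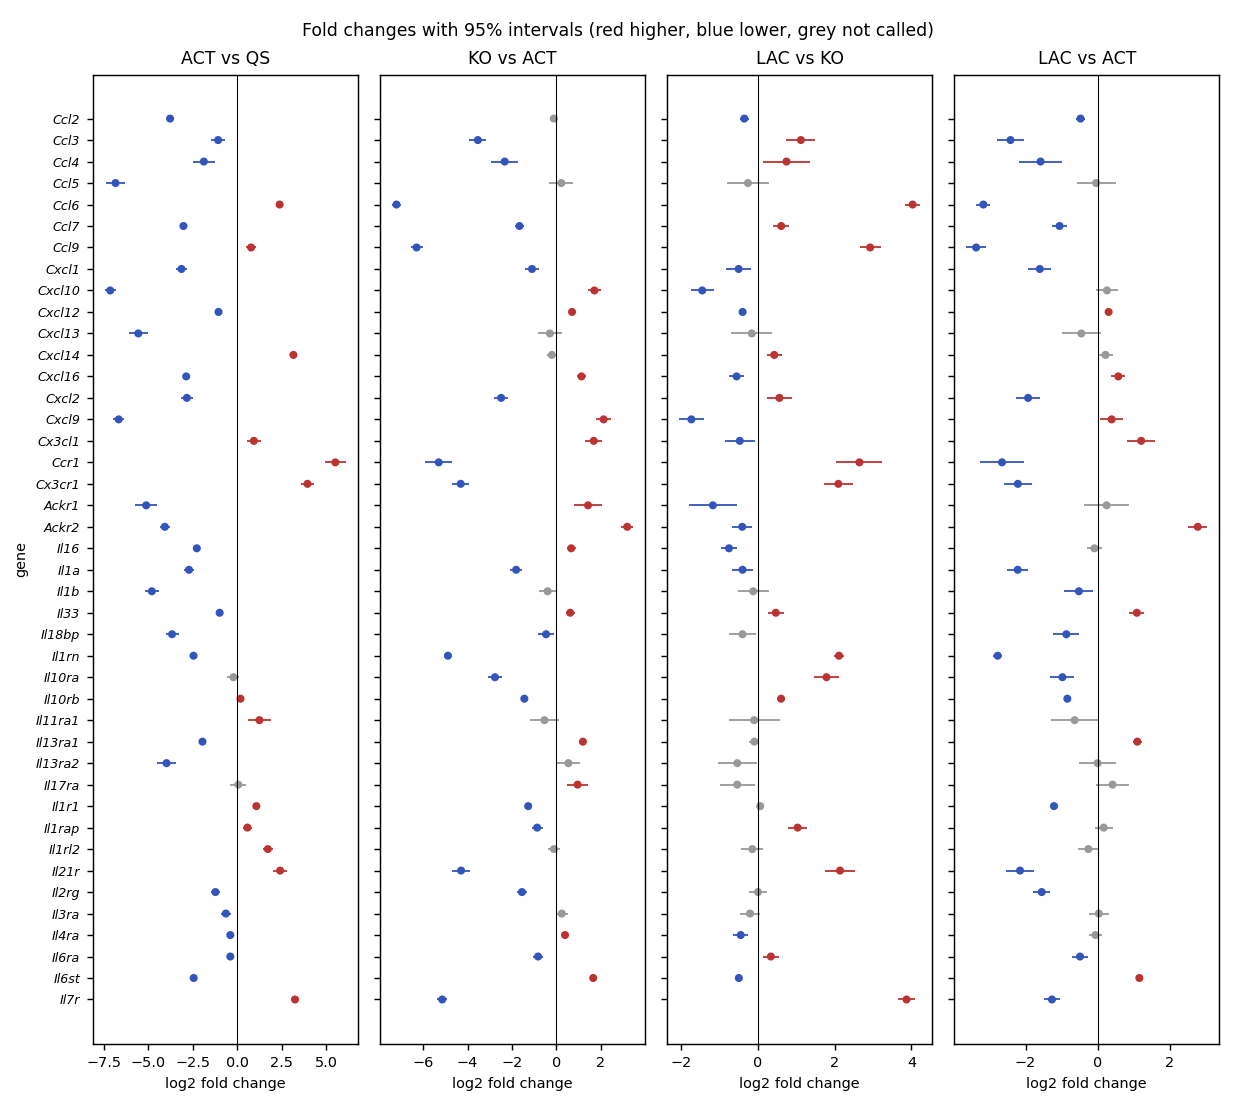
Log2 fold change on the log2(CPM + 1) scale (points) with its 95% interval (lines) for 42 of the 43 members with a mean of at least 20 CPM in at least 1 group, in 4 panels for the 4 comparisons. From ACT to KO the points run from -7.20 for Ccl6 to 3.19 for Ackr2.

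The genes that carry these signals inside the cell were counted from lists of 91 listed genes outside the 62. Of the 91, 84.6%, 81.3%, 58.2% and 72.5% were called in the 4 comparisons (ACT against QS, KO against ACT, LAC against KO, LAC against ACT). The shares of all genes were 73.5%, 62.4%, 41% and 49.5%, with medians of 0.03, 0.07, -0.02 and 0.03. Each list below is given in this order, to be read beside these values. JAK kinases and STAT factors fell from QS to ACT: 9 of 10 were called lower in ACT and none higher, with a median of -1.46 beside 0.03 for all genes. The Kupffer cell, endothelial and hepatocyte marker sums fell at this step too, while the macrophage sum rose, and their part was not tested. Large falls included those of Stat2 (log2 fold change -3.41, SE 0.057 and adjusted p = 1.37e-15), Jak3 (-2.82) and Jak2 (-1.92). From ACT to KO, 5 of the 10 rose and 5 fell, with a median of -0.01 beside 0.07. The kinases led the rises: Jak1, which serves gp130, had a mean ± SD of 331 ± 3.203 CPM (ACT), 908 ± 1.19 (KO) and 605 ± 12.3 (LAC) (n = 3 each), with a rise in KO (log2 fold change 1.45, SE 0.026 and adjusted p = 6.29e-15) and a fall with lactate (log2 fold change -0.59, SE 0.026 and adjusted p = 5.41e-10). Jak3 rose too (1.20), while Stat5a fell (-0.66). With lactate 2 rose and 3 fell, and LAC against ACT had 4 higher and 5 lower, Tyk2 among the latter (-0.39). The called shares of this list were 90%, 100%, 50% and 90%.

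Of 10 feedback inhibitors, 3 rose and 5 fell into ACT, 3 rose and 4 fell in KO, 4 rose and 1 fell with lactate, and 2 were higher and 3 lower in LAC than in ACT, with medians of -0.21, -0.04, 0.10 and 0.01. Called shares of 80%, 70%, 50% and 50% were near those of all genes (73.5%, 62.4%, 41% and 49.5%). Socs3, which shuts off gp130 signalling, had 56.3 ± 3.06 CPM (QS), 7.38 ± 0.142 (ACT), 35.98 ± 1.11 (KO) and 16.9 ± 0.318 (LAC) (mean ± SD, n = 3 each). Its level fell into ACT (log2 fold change -2.77, SE 0.076 and adjusted p = 2.81e-13) and rose in KO (log2 fold change 2.14, SE 0.076 and adjusted p = 8.63e-12). After lactate it fell (log2 fold change -1.04, SE 0.076 and adjusted p = 8.56e-08), an order of groups like that of Il6st. Ptpn6, the phosphatase SHP-1 of blood cells, did the opposite, at 83.7 ± 3.95 CPM (ACT), 1.62 ± 0.302 (KO) and 20.3 ± 0.948 (LAC), with changes of -5.02 into KO and 3.03 with lactate. Cish fell into ACT (-1.60), and Socs2 rose in KO (0.93). Socs4 fell into ACT (-0.54) where Socs5 rose (0.53), and Pias1 fell in KO (-0.36) and was lower in LAC than in ACT (-0.20). The rise of Socs4 with lactate (0.25) was not called without KO replicate 2 or LAC replicate 3 (log2 fold change 0.18 to 0.19, adjusted p = 0.0544 to 0.0617), and that of Socs5 (0.23) was not called without KO replicate 1 or 2 or LAC replicate 2 or 3 (log2 fold change 0.17 to 0.21, adjusted p = 0.0582 to 0.0851).

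Of 25 adaptors of the IL-1 and Toll receptors and NF-kB genes, 16 fell and 4 rose into ACT (median -0.54), 11 fell and 7 rose in KO (-0.21), 9 fell and 7 rose with lactate (-0.00), and 12 were lower and 3 higher in LAC than in ACT (-0.30). In either direction 80%, 72%, 64% and 60% were called, beside 73.5%, 62.4%, 41% and 49.5% of all genes. Nfkbia, the NF-kB inhibitor that NF-kB itself induces, had 226 ± 10.8 CPM (QS), 43.6 ± 0.3996 (ACT), 59.3 ± 2.51 (KO) and 31.7 ± 2.62 (LAC). Its level fell into ACT (-2.35) and with lactate (-0.89). Nfkbid was one of the 4 that rose on activation, with a rise into ACT (3.10) and a fall in KO (-3.08). Irak2 fell in KO (-1.01) and rose with lactate (0.43), and Tnfaip3 did likewise (-0.73 and 0.81), while Map3k7, the kinase TAK1, rose in KO (0.82). Nfkbie and Nfkbiz fell into ACT (-1.89 and -1.44), Relb fell with lactate (-0.59), and Irak3 and Irak4 were lower in LAC than in ACT (-0.66 and -0.59).

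Among 12 genes that couple chemokine receptors to the cell, 6 rose and 5 fell into ACT, 4 rose and 6 fell in KO, 4 rose and 4 fell with lactate, and 3 were higher and 6 lower in LAC than in ACT, with medians of 0.17, -0.34, 0.05 and -0.18. Calls covered 91.7%, 83.3%, 66.7% and 75% of them, beside 73.5%, 62.4%, 41% and 49.5% of all genes. Dock2, the Rac activator of migrating blood cells, moved as the chemokine receptors did, with 234 ± 0.517 CPM (ACT), 2.001 ± 0.794 (KO) and 57.5 ± 3.25 (LAC). Its changes were 1.86, -6.32 and 4.32 at the 3 steps. Pik3cg, the kinase of the same cells, rose into ACT (1.38) and fell in KO (-3.25). From KO to LAC it rose (1.75). Rgs1 fell in KO (-3.31), whereas Grk5, a receptor kinase, rose there (0.92). Arrb1 fell into ACT (-1.59) and Arrb2 did so as well (-1.30), and Rgs2 rose with lactate (0.53).

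Inflammasome genes, needed to process IL-1β and IL-18, fell in KO: 5 of 6 fell and 1 rose there (median -1.23), after 4 fell and 1 rose into ACT (-0.76). With lactate 3 rose and none fell (0.45), and in LAC 4 were lower and 1 higher than in ACT (-0.85). The called shares were 83.3%, 100%, 50% and 83.3%, beside 73.5%, 62.4%, 41% and 49.5% of all genes. Pycard, the adaptor ASC, stood at 9.42 ± 0.165 CPM (QS), 41.02 ± 1.59 (ACT), 1.39 ± 0.709 (KO) and 8.98 ± 0.565 (LAC), with a rise into ACT (2.01), a fall in KO (-4.18) and a rise with lactate (2.10). Nlrp3 fell in KO (-3.53), as did Aim2 (-1.53) and Casp1 (-0.92), and Casp4 fell into ACT (-2.52). Dock2, Ptpn6, Pik3cg and Pycard are genes of blood cells as well, the macrophage marker sum moved with them, and its part was not tested.

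Fold changes of low genes depended on the pseudocount of 1 CPM. With 5 CPM in its place, 70 of the 180 called pairs of a gene and a comparison moved by over 1.5 times, though none changed direction.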

How the data were processed

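The 12 libraries were made with a stranded kit for mRNA, per the labels' protocols. The values are read counts normalized to CPM by the authors, recorded as a signal because the deposited columns total 959233 to 1047042, so that further scaling per library is present. The submitters' processing notes name kallisto 0.44.0, edgeR 3.8, cutadapt 1.18, FastQC 0.11.8 and the build mm10, without saying what each did. Only 19.1% to 25.7% of positive values lay within 0.01 of a whole read, so reads were not recovered and no count test was run.

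Levels were tested with limma 3.58.1 (R 4.3.3) after a log2(CPM + 1) transform, fitting the means of 4 groups over 12 libraries on 8 residual degrees of freedom, an intensity trend and Benjamini-Hochberg adjustment over 12081 genes in each comparison; the script was tested on simulated data. The members and lists were chosen with earlier results of these data known. Members with a group mean of at least 20 CPM are given by library. For each comparison the 5 largest called rises and falls (at least 5 CPM in the higher group, no overlap) and up to 4 called genes per pathway list are named, but 1 member and some list genes, which enter the counts, are not reported here. Gene coordinates are from GENCODE M21 (mm10) and promoters from RefSeq (GRCm38.p6), with windows for 47 of 62 members. Protein sequences were not used here. Alternatives were other pseudocounts (0.1, 0.5 and 5 CPM), filters, scalings, a replicate block, fewer groups, no trend and leaving out each library.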

Additional observations from a re-analysis of the deposited data

How the results depend on the processing

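All counts of members and of all genes called stayed within 1.5 times under every alternative run. Leaving out each library gave 17 to 20 members higher and 35 to 36 lower for ACT against QS, 18 to 23 and 27 to 29 for KO against ACT, 19 to 21 and 14 to 16 for LAC against KO, and 12 and 25 to 26 for LAC against ACT. Of 180 called pairs of a member and a comparison, 160 kept their call and 20 lost it under at least 1 alternative, while none changed direction. The pairs that lost it numbered 8 with a pseudocount of 5 CPM, 3 with 0.1 and 2 with 0.5, 8 with quantile scaling, 5 with only the 2 groups compared in the fit, 2 without the trend, 2 with median scaling and 1 with equal totals. Besides those named with the results, these were Ackr4 in KO (0.27, adjusted p = 0.12) and Cxcl3 in LAC against ACT (-0.24, adjusted p = 0.0681), both at a pseudocount of 5 CPM, and Ccl24 in ACT against QS, lost with a pseudocount of 0.1 (-0.58, adjusted p = 0.21) or 0.5 (-0.53, adjusted p = 0.0714), with equal totals (adjusted p = 0.0643) or median scaling (adjusted p = 0.0623), and without any 1 of 5 libraries (adjusted p = 0.0515 to 0.0976). The filter at 5 CPM removed the pairs it could not test and ended no other call. Outside the members, 17 of 203 called pairs lost their call under at least 1 alternative, and none changed direction.

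Same-numbered libraries deviated together little: over genes of at least 20 CPM the correlations of their deviations ran from -0.12 to 0.23, and 4 of 18 exceeded 0.1. Correlations between differently numbered libraries were not computed, so these values cannot tell whether the numbers pair the samples. With the replicate number as a block, 19 members were higher and 36 lower in ACT than in QS, 21 and 28 in KO against ACT, 21 and 16 in LAC against KO, and 12 and 27 in LAC against ACT, and the one call lost was that of Cxcl9 in LAC against ACT (0.39, adjusted p = 0.0611). Depth limits levels under 0.212 to 0.720 CPM, the worth of 3 reads, so that changes of Cxcl2, Cxcl3, Cxcl9 and Il1b between cultured groups rest on few reads.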

Other observations

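Cytokines and receptors outside the 62 genes included strong courses of their own. Of 9 other cytokines listed, 5 rose and 2 fell into ACT, 4 rose and 3 fell in KO, 3 rose and none fell with lactate, and 4 were higher and 3 lower in LAC than in ACT, with medians of 0.53, -0.14, 0.43 and 0.01. Called shares were 77.8%, 77.8%, 33.3% and 77.8%, beside 73.5%, 62.4%, 41% and 49.5% of all genes. Lif, which signals through gp130 and the LIF receptor, had 3.71 ± 0.595 CPM (QS), 14.6 ± 0.469 (ACT), 41.2 ± 2.88 (KO) and 41.9 ± 3.75 (LAC) (mean ± SD, n = 3 each). It rose into ACT (log2 fold change 1.73, SE 0.11 and adjusted p = 4.21e-09) and KO (log2 fold change 1.44, SE 0.11 and adjusted p = 5.83e-08), and the difference between KO and LAC was not called (log2 fold change 0.02, 95% interval -0.22 to 0.26, adjusted p = 0.889). Csf1, the growth factor of macrophages, rose into ACT (log2 fold change 1.51, SE 0.032 and adjusted p = 1.5e-14) and stood at 1169.5 ± 10.4 CPM (ACT), 1366 ± 48.5 (KO) and 1338 ± 36.6 (LAC), so it was not lower where its receptor Csf1r was: Csf1r had 556 ± 12.5, 11.65 ± 2.07 and 157 ± 1.78 CPM, with a fall in KO (log2 fold change -5.47, SE 0.089 and adjusted p = 1.98e-15) and a rise with lactate (log2 fold change 3.66, SE 0.089 and adjusted p = 9.22e-13). Csf1r is also among the macrophage markers. Tnf fell into ACT (-1.66) and KO (-2.41), and Pf4 rose into ACT (2.59) and fell in KO (-3.09). Ebi3, a partner subunit of IL-27, fell in KO (-2.99) and was lower in LAC than in ACT (-1.45).

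Of 19 other cytokine receptors, 9 rose and 8 fell into ACT, 6 rose and 10 fell in KO, 10 rose and 3 fell with lactate, and 8 were higher and 8 lower in LAC than in ACT, with medians of 0.10, -0.56, 0.20 and -0.01. In either direction 89.5%, 84.2%, 68.4% and 84.2% were called, beside 73.5%, 62.4%, 41% and 49.5% of all genes. Receptors of colony-stimulating factors fell in KO and rose with lactate, as in Csf2rb (-4.20 and 2.81), Csf2ra (-3.796 and 2.30) and Csf3r (-3.85 and 2.74). The macrophage marker sum (3.69% of ACT in KO and 25.6% in LAC) and the neutrophil one (4.84% and 12.5%) moved with them, and their part was not tested. Csf2rb has a near-identical copy, Csf2rb2, so its single value is uncertain. Receptors of the leptin and LIF type did not: Lepr, the leptin receptor, was at 32.7 ± 2.498 CPM (QS), 5.06 ± 0.3103 (ACT), 46.3 ± 2.56 (KO) and 45.7 ± 2.31 (LAC), with a fall into ACT (log2 fold change -2.47, SE 0.085 and adjusted p = 3.47e-12), a rise in KO (log2 fold change 2.96, SE 0.085 and adjusted p = 8.93e-13) and no call between KO and LAC (log2 fold change -0.02, 95% interval -0.20 to 0.17, adjusted p = 0.893). Lifr fell into ACT (log2 fold change -4.76, SE 0.059 and adjusted p = 7.03e-17) and rose in KO (log2 fold change 2.17, SE 0.059 and adjusted p = 5.41e-13), and Cntfr rose in KO as well (2.25). Epor fell into ACT (-2.79).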
